A study of Mus musculus with 10 samples.

Results

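Precursor RNA splicing genes named as splicing factors, small nuclear ribonucleoprotein (snRNP) proteins, heterogeneous nuclear ribonucleoproteins (hnRNPs) and numbered RNA-binding motif proteins were compared between leukaemia cells and myeloid cells of mouse bone marrow. Members were the entries of the deposited table whose names begin with Srsf, Snrp, Snrnp, Sf3a, Sf3b, Hnrnp, Prpf or U2af, or with Lsm or Rbm and a digit. The rule found 96 of 10141 genes. It used names only, but it was chosen with earlier results of these data known. The table holds genes with a difference between the groups, so having an entry was not independent of the measured values. In the GENCODE M21 annotation 127 protein-coding genes carry such names. The other 31, among them Srsf9, Hnrnpf and Snrpc, have no entry in the table and are not analysed here. The largest families were Rbm (27 genes), Hnrnp (14) and Prpf (12).

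The leukaemia group was GFP+ cells of the genotype MLL-AF9/GFP, MLL-AF9 being a leukaemogenic fusion gene and GFP a fluorescent marker. They had been given by tail vein injection to CD45.1 recipients. The myeloid group was GFP-CD11b+ non-leukaemic cells of the recipient marrow, taken once GFP+ cells made up 2% of peripheral blood. Each group held 5 libraries of total RNA, and mouse age was not given in the sources used here. The protocol describes sorting by flow cytometry for both populations, while the design text describes magnetic selection of CD45.2-negative CD11b+ cells for the myeloid group. All 10 libraries carry the leukaemia cell type and the MLL-AF9/GFP genotype as labels, so groups were taken from the titles. The labels do not state whether libraries came from separate mice or how many leukaemia clones were used, so p-values measure the spread between these libraries, which may be technical. In bulk RNA, fewer cells of a type and less RNA per cell cannot be told apart.

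Splicing removes introns from precursor RNA on the spliceosome, which is built from the U1, U2, U4, U5 and U6 snRNPs on each intron. A ring of Sm proteins, or of Lsm proteins on U6, holds each small nuclear RNA, while SF3A, SF3B and U2AF mark the branch point and the 3′ splice site. SR proteins (Srsf genes) mostly promote exon recognition, and many hnRNPs repress it or package nascent RNA. Genes for SRSF2, SF3B1 and U2AF1 are recurrent mutation targets in human myeloid cancers.

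Recovered reads per library, summed over the table, ran from 24099411 to 32247713. Size factors, by which reads were divided to give normalised reads, ran from 1.08 to 1.39 in leukaemia and from 0.736 to 0.858 in myeloid libraries, so they did not overlap between the groups. Normalised reads of the table summed, on average, to 1.56 times as many in myeloid as in leukaemia libraries. Hoxa9, a target gene of MLL fusions, averaged 3215 ± 329 normalised reads in leukaemia cells against 16 ± 5.3 in myeloid cells, while Itgam, the gene of CD11b, averaged 12227 ± 1128 and 97794 ± 13873 (SD, n = 5 each). The 8 neutrophil markers summed to 46901 to 51556 normalised reads in leukaemia and to 2049050 to 3312870 in myeloid libraries. The groups therefore also differed in maturation markers, and leukaemia and maturation stage cannot be told apart here. Myeloid replicates 2 and 4 stood apart from the others. The 6 dendritic and MHC class II markers summed to 4904 and 4882 normalised reads in them, against 37465 to 58389 in replicates 1, 3 and 5 and 812 to 2111 in leukaemia. Macrophage markers (5 of 8 with an entry) summed to 5321 to 7069 in leukaemia and to 12391 to 15907 in myeloid libraries, but single markers differed. Slc40a1 made up most of the myeloid sum (8784 to 14659), and Vcam1 was higher in leukaemia (mean 4112 against 1088). C1qa (18 and 0, against 351 to 532), Mrc1 (63 and 87, against 429 to 847) and Axl (57 and 97, against 917 to 1454) were low in myeloid replicates 2 and 4 compared with replicates 1, 3 and 5. In the leukaemia libraries too, replicates 2 and 4 were the lowest for these genes. There C1qa had 11.1 and 3.4, against 17.6 to 71.1, and Mrc1 had 14.0 and 29.7, against 52.9 to 115. Axl had 79.0 and 108, against 163 to 272. The MHC class II sum did not follow this order in leukaemia (1759 in replicate 2 and 812 in replicate 4, against 1248 to 2111). The T and NK cell list (5 of 6) summed to 2898 to 5874 in leukaemia and to 1254 to 2852 in myeloid libraries, and Nkg7 alone set that order (mean 4331 against 1004). The T cell receptor genes Cd3d (5.9 against 243), Cd3e (0.37 against 21.5) and Cd3g (0 against 39.4) and the NK cell gene Klrb1c (20.6 against 542) had lower means in leukaemia, and Cd3g was at 0 in all 5 leukaemia libraries. The B cell list (6 of 6) summed to 465 to 591 and 483 to 2249, and the erythroid list (2 of 6) to 2.55 to 62.0 and 5.91 to 245. Whether these other cells have a part in the differences below was not tested.

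Most splicing and hnRNP genes were higher in leukaemia cells. Of 93 members with enough reads to test, 70 were higher and 23 were lower at a limma adjusted p below 0.05, so all 93 passed. The background was 99.8% of 8079 genes passing, 49.1% higher and 50.7% lower, since the table holds genes with a difference between the groups and its highest unadjusted p was 0.243. A pass alone therefore says little, and direction and size carry the description. The median log2 difference of the members was 0.44 on the variance-stabilised scale, against -0.16 over all genes tested. In mean normalised reads the median member was 1.51-fold higher in leukaemia. The members' differences were moderate. At least a 2-fold ratio was reached by 20 members as higher (21.5% of those tested, background 22.4%) and by 4 as lower (4.3%, background 25%). On the variance-stabilised scale, which compresses differences at low reads, 7 members lay at least 1 above 0 (background 9.52%) and 2 lay at least 1 below (background 18.1%). Without myeloid replicate 2 the first count was 11, the added genes being Snrpa1, Snrpd1, Snrpf and Srsf6. The share over all genes is not given for that run, so this count is not read as a result about the members. The groups did not overlap for 82 members (background 86.8%), made up of 64 higher and 18 lower members (backgrounds 42.4% and 44.3%).

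**Figure D1:**
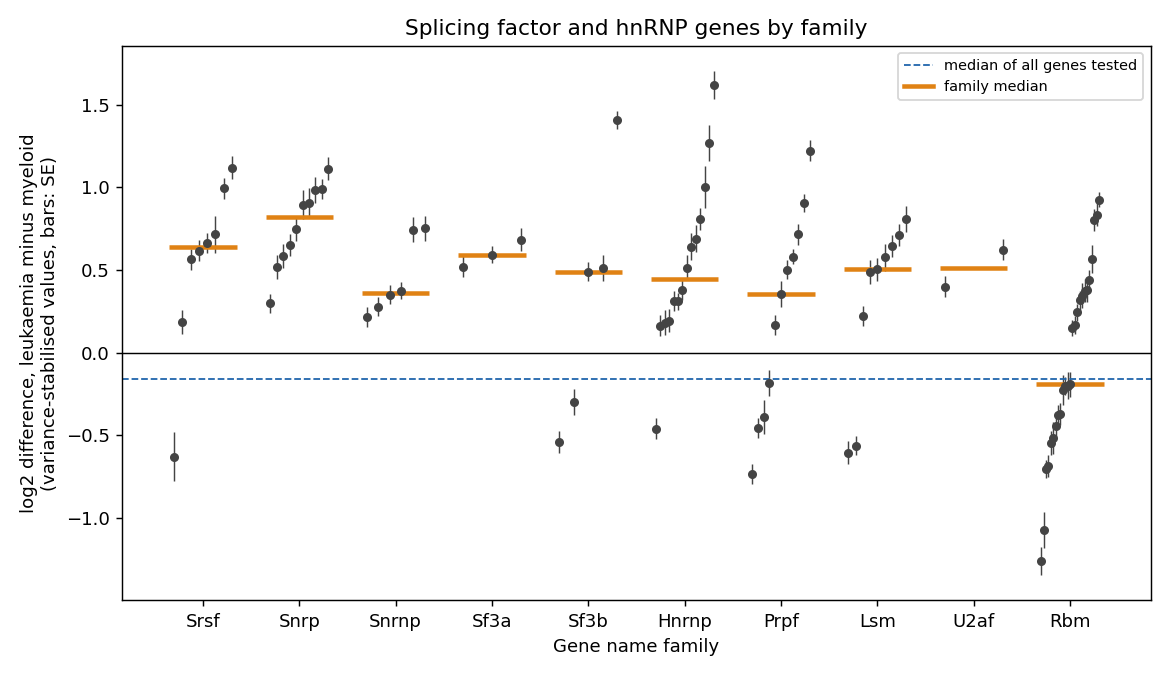
Log2 difference of variance-stabilised values, leukaemia minus myeloid (vertical axis, points with SE), for the 93 tested members in 10 name families (horizontal axis), with family medians in orange and the median of all genes tested dashed at -0.16. Family medians run from -0.19 (Rbm) to 0.82 (Snrp), and the points of Snrp, Snrnp, Sf3a and U2af lie above 0.

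Direction was counted by family. All members were higher in Snrp (10 of 10), Snrnp (6 of 6), Sf3a (3 of 3) and U2af (2 of 2). In Srsf 7 of 8, in Hnrnp 13 of 14 and in Lsm 7 of 9 were higher. The exceptions were Srsf5, Hnrnph2, Lsm10 and Lsm14a. Sf3b had 3 higher and 2 lower, and Prpf 7 higher and 4 lower. Rbm, a set of proteins that share an RNA recognition motif and have diverse tasks, had 12 higher and 13 lower with the authors' size factors. It had 15 higher and 6 lower after quantile normalisation, and 18 higher and 4 lower under total scaling, in which voom scales each library to its sum of reads over the table. Over all genes tested the shares higher and lower were 49.1% and 50.7%, 46.6% and 40.9%, and 57.2% and 27.6% in the same order. The Rbm median lay at -0.035, 0.12 and -0.03 from the all-gene median. The family medians were 0.82 for Snrp, 0.64 for Srsf, 0.59 for Sf3a, 0.51 for U2af, 0.50 for Lsm, 0.49 for Sf3b, 0.45 for Hnrnp, 0.36 for both Snrnp and Prpf, and -0.19 for Rbm.

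RefSeq starts on the GRCm38.p6 build were found for 83 members, and the first listed start of each gene was searched from 250 bases before to 50 bases after it. The letters searched were CACGTG, the E-box that Myc and its partners can bind, and the palindrome of the respiration factor NRF1, each of which reads the same on both strands. CACGTG was present in 9 of 83 members (10.8%), in 11% of 6512 tested genes and in 7.24% of 27025 genes in the promoter table. It was in 6 of 62 members higher in leukaemia (9.68%) and in 2 of 20 lower members (10%). The NRF1 palindrome was in 1 of 83 (1.2%), against 2.32% of tested genes and 0.977% of the table. These shares do not set the members apart from the other tested genes. A match is a description of letters and no evidence of binding.

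The 4 windows of bases directly before the start site are shown because they hold these letters, in capitals, in genes with different values. Snrpa (chr7:27196272-27196441, minus strand) and Rbm19 (chr5:120116343-120116512, plus strand) were among the members highest in leukaemia, Prpf39 (chr12:65036164-65036333, plus strand) was lower, and Snrnp70 (chr7:45395743-45395912, minus strand) was slightly higher and holds the NRF1 letters. Prpf39 was 1.39-fold lower with the authors' size factors only, and its groups overlapped.
Snrpa: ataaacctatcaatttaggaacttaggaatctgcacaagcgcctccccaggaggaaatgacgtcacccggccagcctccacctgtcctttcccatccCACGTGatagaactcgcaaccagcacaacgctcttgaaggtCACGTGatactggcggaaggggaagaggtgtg
Rbm19: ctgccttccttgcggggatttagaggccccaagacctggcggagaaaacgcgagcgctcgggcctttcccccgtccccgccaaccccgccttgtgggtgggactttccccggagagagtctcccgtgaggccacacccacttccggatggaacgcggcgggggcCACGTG
Prpf39: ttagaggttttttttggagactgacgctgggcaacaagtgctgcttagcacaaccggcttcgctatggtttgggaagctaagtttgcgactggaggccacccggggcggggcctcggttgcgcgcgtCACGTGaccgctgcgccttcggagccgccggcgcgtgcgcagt
Snrnp70: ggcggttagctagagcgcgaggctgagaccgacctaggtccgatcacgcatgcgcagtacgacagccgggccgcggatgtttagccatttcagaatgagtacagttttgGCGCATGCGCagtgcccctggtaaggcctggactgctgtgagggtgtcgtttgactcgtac

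Values per library are given below in normalised reads, in the order of replicates 1 to 5, and means are given with the SD (n = 5). Over all genes tested 86.8% had groups that did not overlap, so a lack of overlap alone says little here and below. The 7 Sm ring genes were higher in leukaemia. The Sm ring is the heptamer assembled around the U1, U2, U4 and U5 RNAs. All 7 of its genes in the table were higher with groups that did not overlap (background 42.4%). Their ratios lay between 1.58-fold (Snrpd3) and 2.78-fold (Snrpf). Snrpf had 1267, 1649, 1777, 1522 and 1577 in the leukaemia libraries (replicates 1 to 5), and 507, 712, 484, 587 and 518 in the myeloid libraries. The lowest leukaemia library lay well above the highest myeloid library (2.78-fold higher, limma log2 difference 0.98, SE 0.0786, adjusted p = 6.51e-08). Of the 50-base words of the longest Snrpf transcript 89.5% occur in transcripts of other genes, so its reads may be shared with them. Snrpd2 had 1365, 1984, 1622, 1785 and 1689 in leukaemia, and 627, 909, 614, 679 and 618 in myeloid cells, with myeloid replicate 2 above the other myeloid libraries. It was 2.45-fold higher (limma log2 difference 0.90, SE 0.0863, adjusted p = 4.08e-07). Snrpd1 had 1935, 2153, 2003, 2037 and 2128 in leukaemia, and 812, 1260, 712, 786 and 823 in myeloid cells (2.33-fold higher), and replicate 2 was again the highest myeloid library. Snrpg was 2.28-fold, Snrpe 1.77-fold, and Snrpb 1.66-fold higher. Snrpd3 had 2449, 2442, 2554, 1988 and 2264 in leukaemia, and 1367, 1747, 1414, 1346 and 1519 in myeloid cells (1.58-fold higher). The groups of these genes did not overlap with the replicate 2 values included.

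The U1 and U2 genes of the Snrp and Snrnp families were higher, by unequal amounts. For U1, Snrpa, which encodes an RNA-binding protein of U1, had 2545, 3131, 3303, 3268 and 3365 in leukaemia, and 1209, 1146, 1217, 1074 and 1170 in myeloid cells. This was 2.68-fold higher (limma log2 difference 1.11, SE 0.0676, adjusted p = 4.44e-09), and leukaemia replicate 1 was the lowest of its group. Snrnp70, the gene of the largest U1-specific protein, had 5942, 6858, 6589, 6400 and 6828 in leukaemia, and 5211, 5131, 5456, 5490 and 5085 in myeloid cells (1.24-fold higher). For U2, Snrpa1 had 1540, 1618, 1640, 1713 and 1640 in leukaemia, and 531, 713, 518, 579 and 618 in myeloid cells, and was 2.76-fold higher (limma log2 difference 0.99, SE 0.0581, adjusted p = 3.23e-09). Its partner gene Snrpb2 had 1703, 1771, 1644, 1684 and 1679 in leukaemia, and 1407, 1149, 1401, 1139 and 1353 in myeloid cells (1.32-fold higher). In each pair, then, 1 gene differed far more than the other. The U11/U12 proteins of the minor spliceosome, which removes a rare intron class, were higher too. Snrnp25 had 614, 812, 682, 804 and 770 in leukaemia, and 189, 338, 259, 265 and 326 in myeloid cells, 2.67-fold higher (limma log2 difference 0.75, SE 0.0756, adjusted p = 6.09e-07). Snrnp48 was 1.58-fold and Snrnp35 1.41-fold higher, and the Snrnp35 groups overlapped through myeloid replicate 2, which lay above leukaemia replicate 1 (288). After quantile normalisation Snrnp35 no longer passed (log2 difference 0.019, limma adjusted p = 0.771).

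Of the 9 Lsm genes 7 were higher. Lsm2, Lsm3, Lsm4, Lsm6, Lsm7 and Lsm8 belong to the ring on U6 RNA and all 6 were higher, from 1.25-fold (Lsm8) to 2.77-fold (Lsm7). Lsm2 had 801, 1058, 940, 1145 and 958 in leukaemia, and 337, 459, 292, 429 and 371 in myeloid cells (2.6-fold higher, limma log2 difference 0.81, SE 0.0771, adjusted p = 3.73e-07). Lsm7 had 569, 423, 386, 449 and 515 in leukaemia, and 146, 193, 201, 145 and 162 in myeloid cells, with the groups far apart (limma log2 difference 0.65, SE 0.0664, adjusted p = 7.47e-07). Lsm6 had 1992, 2034, 1969, 1798 and 2039 in leukaemia, and 908, 1146, 1121, 839 and 1039 in myeloid cells (1.95-fold higher). Lsm3 was 1.83-fold and Lsm4 1.58-fold higher. The Lsm8 groups overlapped, as leukaemia replicate 1 (1001) lay below myeloid replicate 2 (1025). Lsm10 and Lsm11 are partners in the U7 snRNP, which cuts the 3′ end of histone RNA, and they went opposite ways. Lsm11 was 1.9-fold higher, with 541, 656, 533, 790 and 599 in leukaemia, and 279, 334, 344, 395 and 289 in myeloid cells (limma log2 difference 0.49, SE 0.0729, adjusted p = 2.87e-05). Lsm10 was 2.1-fold lower, with 302, 304, 292, 360 and 284 in leukaemia, and 568, 762, 614, 607 and 681 in myeloid cells (limma log2 difference -0.56, SE 0.0589, adjusted p = 9.51e-07). Neither pair of groups overlapped. Lsm14a, a gene of cytoplasmic RNA granules rather than of the spliceosome, had 4085, 4006, 3945, 4035 and 4162 in leukaemia, and 6079, 6885, 5874, 7512 and 5949 in myeloid cells (1.6-fold lower, limma log2 difference -0.60, SE 0.0693, adjusted p = 2.32e-06). Its value was -0.03 and did not pass under total scaling (limma adjusted p = 0.612).

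Core Prpf genes of the U5 and U4/U6 snRNPs were mostly higher. Prpf8, the largest protein at the catalytic centre, had 19927, 18000, 19752, 19477 and 20196 in the leukaemia libraries (replicates 1 to 5), and 11231, 10836, 11501, 12733 and 11884 in the myeloid libraries. It was 1.67-fold higher (limma log2 difference 0.72, SE 0.065, adjusted p = 2.27e-07). Its U5 partner Snrnp40 had 2191, 2627, 2593, 2636 and 2550 in leukaemia, and 1150, 1505, 1270, 1466 and 1122 in myeloid cells (1.93-fold higher). Snrnp200, the helicase that unwinds U4 from U6, had 9708, 9498, 9550, 9114 and 9553 in leukaemia, and 7702, 6644, 7189, 7858 and 7218 in myeloid cells (1.3-fold higher). Neither overlapped between the groups. Prpf6, which bridges U5 to U4/U6, had 1853, 1849, 1915, 1852 and 1972 in leukaemia, and 2487, 2739, 2704, 3260 and 2749 in myeloid cells (1.48-fold lower). Under total scaling its difference was 0.082 and did not pass (limma adjusted p = 0.242). The 3 U4/U6 genes were higher, namely Prpf31 (2.29-fold), Prpf4 (1.84-fold) and Prpf3 (1.66-fold). Prpf31 had 2327, 2546, 2499, 2191 and 2436 in leukaemia, and 1084, 1080, 1121, 986 and 967 in myeloid cells (limma log2 difference 0.91, SE 0.0536, adjusted p = 3.51e-09).

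Among the other Prpf genes, Prpf19 had the highest value. Prpf19, the ubiquitin ligase of the complex that activates the spliceosome, had 5148, 5765, 5055, 5445 and 5418 in leukaemia, and 1953, 2308, 1939, 1799 and 1985 in myeloid cells. The ratio was 2.69-fold (limma log2 difference 1.22, SE 0.0626, adjusted p = 9.1e-10). Prpf18, a factor of the second catalytic step, was the lowest, with 2080, 1751, 1849, 1695 and 1702 in leukaemia, and 3111, 3688, 3284, 3435 and 3306 in myeloid cells. It was 1.85-fold lower (limma log2 difference -0.73, SE 0.0616, adjusted p = 1.05e-07), again without overlap. Prpf4b, a kinase gene, was 1.32-fold and Prpf38a 1.19-fold higher. Prpf39, of the U1 snRNP, was 1.39-fold lower with overlapping groups (1763 ± 316 against 2454 ± 341 normalised reads). It did not pass after quantile normalisation (-0.15, limma adjusted p = 0.234) or under total scaling (0.16, limma adjusted p = 0.33). Prpf38b was 1.15-fold lower (limma adjusted p = 0.0363), and the call was lost on leaving out any of 6 single libraries (leukaemia 2, 4 or 5, myeloid 1, 3 or 5, adjusted p from 0.0608 to 0.0996). It passed as higher after quantile normalisation (0.33, limma adjusted p = 0.00284) and under total scaling (0.43, limma adjusted p = 0.00214).

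The branch point complex SF3B was split. Sf3b3 was the second highest of all tested members on the variance-stabilised scale, with 10464, 9608, 10719, 10622 and 10658 in the leukaemia libraries (replicates 1 to 5), and 3371, 3636, 3505, 3733 and 3651 in the myeloid libraries. The myeloid values spanned 3371 to 3733 and the leukaemia values 9608 to 10719, a ratio of 2.91 (limma log2 difference 1.41, SE 0.055, adjusted p = 8.75e-11). Sf3b1, the gene of the subunit that clasps the branch point and is mutated in myelodysplasia, went the other way. It had 19201, 16600, 17622, 18035 and 16719 in leukaemia, and 24228, 26029, 26741, 27095 and 25395 in myeloid cells, 1.47-fold lower (limma log2 difference -0.54, SE 0.067, adjusted p = 4.89e-06). Sf3b2 had 10657, 11507, 10585, 11560 and 11133 in leukaemia, and 12866, 15397, 12797, 15771 and 12305 in myeloid cells (1.25-fold lower). Sf3b5 had 1790, 2407, 2036, 2420 and 2375 in leukaemia, and 1288, 1652, 1381, 1245 and 1391 in myeloid cells (1.58-fold higher), and Sf3b4 was 1.54-fold higher. None of the 5 genes overlapped between the groups, as was the case for 86.8% of all genes tested. The decreases of Sf3b1 and Sf3b2 depended on scaling. Under total scaling, where the median of all genes tested was 0.43, Sf3b1 was at 0.083 without passing (limma adjusted p = 0.239). Sf3b2 then passed as higher at 0.33. Relative to the other SF3B genes both were the lowest under all 3 scalings used here (the authors' size factors, quantile normalisation and total scaling). The SF3A genes, whose products join U2 to SF3B, were all higher and clear of overlap (background 42.4%). Sf3a1 had 3777, 3752, 4092, 4158 and 4024 in leukaemia, and 1869, 2367, 2373, 2543 and 2213 in myeloid cells (1.74-fold). Sf3a3 had 2107, 2260, 2184, 2097 and 2195 in leukaemia, and 1215, 1334, 1375, 1215 and 1198 in myeloid cells (1.71-fold). Sf3a2 had 2167, 2715, 2640, 2768 and 2617 in leukaemia, and 1630, 1713, 1546, 1534 and 1770 in myeloid cells (1.58-fold), with leukaemia replicate 1 the lowest of its group. U2af2, which reads the polypyrimidine tract, had 9341, 10433, 9972, 10783 and 10807 in leukaemia, and 5887, 7085, 6202, 6588 and 6570 in myeloid cells (1.59-fold higher, limma log2 difference 0.62, SE 0.066, adjusted p = 1.02e-06). U2af1, which reads the AG at the 3′ splice site and is mutated in myeloid cancers, had 2183, 2565, 2334, 2349 and 2347 in leukaemia, and 1487, 1921, 1574, 1726 and 1611 in myeloid cells (1.42-fold higher, limma log2 difference 0.40, SE 0.0622, adjusted p = 4.03e-05). For U2af1, 59.4% of 50-base words are shared with transcripts of other genes, so its level is uncertain. The same holds for Srsf4 (65.4%), Rbm12b2 (54.1%) and Sf3b4 (51.2%).

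**Figure D2:**
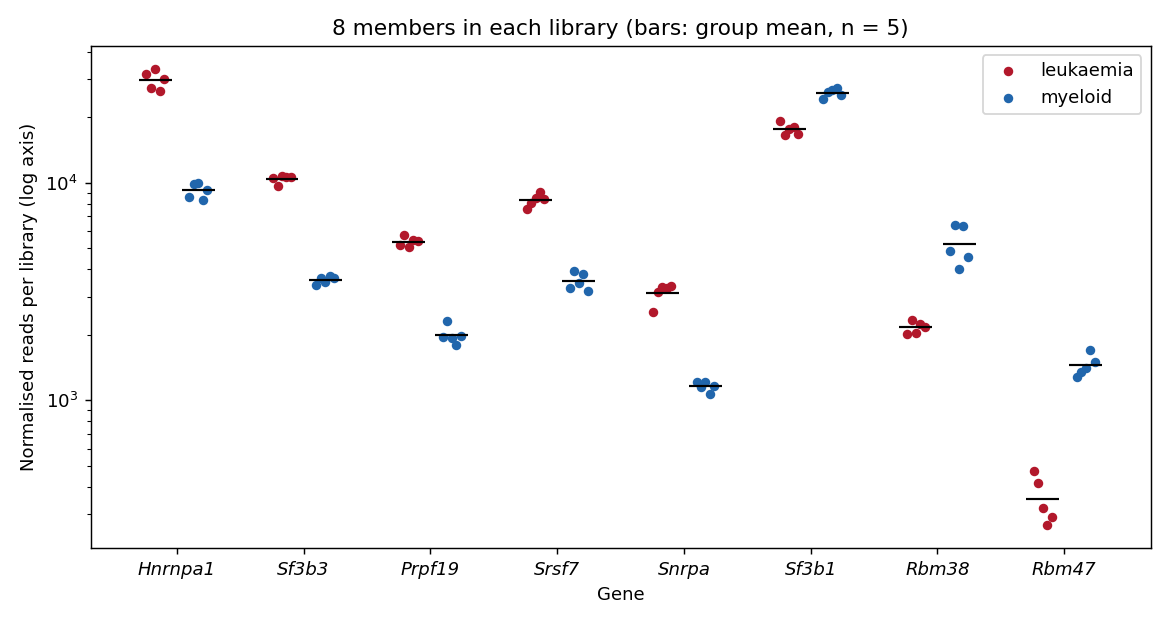
Normalised reads (log axis) of 8 members in each of the 5 leukaemia (red) and 5 myeloid (blue) libraries, with group means as bars. Hnrnpa1, Sf3b3, Prpf19, Srsf7 and Snrpa lie higher in leukaemia and Sf3b1, Rbm38 and Rbm47 lower, and the groups do not overlap for any of the 8.

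SR protein genes were higher in 7 of 8 cases. Srsf7 had 7584, 8045, 8524, 9077 and 8391 in leukaemia, and 3283, 3936, 3455, 3819 and 3188 in myeloid cells, 2.35-fold higher (limma log2 difference 1.12, SE 0.0699, adjusted p = 5.81e-09). Srsf6 had 11806, 10968, 12823, 11976 and 11905 in leukaemia, and 5968, 5819, 5841, 5083 and 5742 in myeloid cells, 2.09-fold higher (limma log2 difference 0.99, SE 0.0633, adjusted p = 6.92e-09). Both pairs of groups were wide apart. Srsf1, the founding member and a known oncoprotein, had 16862, 17058, 17176, 18292 and 16513 in leukaemia, and 7691, 12317, 10041, 12250 and 9597 in myeloid cells. It was 1.66-fold higher (limma log2 difference 0.72, SE 0.11, adjusted p = 3.69e-05), and myeloid replicates 2 and 4 lay above the other myeloid libraries. Srsf2, which is mutated in myeloid cancers, had 11431, 11559, 11690, 11910 and 11472 in leukaemia, and 7178, 8783, 7550, 7490 and 7414 in myeloid cells. The groups were apart and myeloid replicate 2 was the highest of its group (1.51-fold higher, limma log2 difference 0.57, SE 0.0629, adjusted p = 1.71e-06). Srsf3 had 12871, 12681, 12184, 12715 and 12761 in leukaemia, and 7615, 9095, 8343, 7453 and 7776 in myeloid cells (1.57-fold higher), and Srsf10, which acts as a repressor when dephosphorylated, 1.68-fold higher.

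Srsf4 and Srsf5 were the exceptions. Srsf4 was 1.15-fold higher with overlapping groups (limma adjusted p = 0.0272), and leaving out any of 5 single libraries (leukaemia 2 or 5, myeloid 1, 3 or 5) ended the call (adjusted p from 0.0518 to 0.071). Srsf5 had 10251, 8100, 11314, 6654 and 9214 in leukaemia, and 17366, 11539, 16321, 11477 and 15206 in myeloid cells. It was 1.58-fold lower (limma log2 difference -0.63, SE 0.148, adjusted p = 0.00125) and had the widest spread of the Srsf genes, with replicates 2 and 4 the lowest in both groups. Under total scaling its difference was -0.025 (limma adjusted p = 0.905).

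Hnrnp genes were higher in 13 of 14 cases. Hnrnpa1, an abundant repressor of exon inclusion, had 31511, 27114, 33347, 26262 and 29797 in the leukaemia libraries (replicates 1 to 5), and 8636, 9889, 9990, 8364 and 9265 in the myeloid libraries. It was the highest tested member at 3.21-fold (limma log2 difference 1.62, SE 0.0831, adjusted p = 9.26e-10). Transcripts of 19 other genes share 46.4% of its 50-base words, so a part of these reads may be theirs. Hnrnpab had 15953, 17469, 16538, 18776 and 16866 in leukaemia, and 5755, 8685, 5908, 7867 and 6052 in myeloid cells, with myeloid replicates 2 and 4 above the rest (2.5-fold, limma log2 difference 1.27, SE 0.108, adjusted p = 1.15e-07). Hnrnpa0 had 6399, 8067, 7131, 8873 and 7431 in leukaemia, and 3808, 4078, 2379, 4221 and 3241 in myeloid cells (2.14-fold, limma log2 difference 1.0, SE 0.128, adjusted p = 6.18e-06). Its groups were clear of each other, although the spread of the myeloid values was wide. Hnrnpr was 1.9-fold, Hnrnph1 1.65-fold and Hnrnpu, a nuclear scaffold protein gene, 1.57-fold higher.

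Hnrnpa2b1, a paralogue of Hnrnpa1, had 40685, 35868, 41523, 35914 and 38203 in leukaemia, and 24066, 28497, 28596, 26212 and 26270 in myeloid cells (1.44-fold, limma log2 difference 0.52, SE 0.0776, adjusted p = 3.05e-05). Hnrnph3 (1.34-fold), Hnrnpm (1.32-fold) and Hnrnpl, a regulator of CD45 splicing (1.26-fold), were higher without overlap. Hnrnpl had 8817, 9036, 9656, 10035 and 9503 in leukaemia, and 7409, 7931, 6836, 7641 and 7550 in myeloid cells (limma log2 difference 0.31, SE 0.0609, adjusted p = 0.000297). The smallest increases were those of Hnrnpc (1.15-fold), Hnrnpd (1.14-fold) and Hnrnpk (1.12-fold), and their groups overlapped. Hnrnpk, a poly(C)-binding protein gene, had 21846, 20318, 21770, 21634 and 20659 in leukaemia, and 17966, 20480, 18646, 19362 and 18048 in myeloid cells (limma log2 difference 0.17, SE 0.0638, adjusted p = 0.0238). Its call was lost without leukaemia replicate 3 or 4 or myeloid replicate 5 (adjusted p from 0.0506 to 0.0599), and that of Hnrnpd without any of 5 libraries (leukaemia 1 or 3, myeloid 1, 4 or 5, from 0.0632 to 0.0814). Hnrnph2 was the lower member, with 4062, 3486, 3902, 3243 and 3681 in leukaemia, and 5241, 5436, 5311, 5067 and 5153 in myeloid cells (1.43-fold lower, limma log2 difference -0.46, SE 0.0617, adjusted p = 1.06e-05). Its paralogues Hnrnph1 and Hnrnph3 were higher. Hnrnph2 was at 0.12 without passing under total scaling (limma adjusted p = 0.16).

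Rbm genes with known nucleolar or RNA methylation roles were among those higher in leukaemia. Rbm19, a nucleolar protein gene of ribosome formation, had 1048, 985, 1035, 1007 and 1061 in the leukaemia libraries (replicates 1 to 5), and 363, 318, 386, 310 and 325 in the myeloid libraries. The leukaemia libraries lay close together, and the ratio was 3.02 (limma log2 difference 0.93, SE 0.048, adjusted p = 9.99e-10). Rbm28, also nucleolar, had 2334, 2143, 2628, 2266 and 2515 in leukaemia, and 1216, 1016, 1297, 1076 and 1137 in myeloid cells (2.07-fold, limma log2 difference 0.80, SE 0.0642, adjusted p = 6.52e-08). Rbm14, a paraspeckle protein gene, had 2728, 3230, 2914, 3189 and 3059 in leukaemia, and 1396, 1568, 1369, 1741 and 1288 in myeloid cells (2.05-fold higher). Rbm15 and Rbm15b encode adaptors of the complex that methylates adenosine in messenger RNA. Rbm15 had 1442, 1187, 1403, 1118 and 1346 in leukaemia, and 909, 733, 885, 887 and 1045 in myeloid cells (1.46-fold, limma log2 difference 0.38, SE 0.0717, adjusted p = 0.000238), and Rbm15b was 1.67-fold higher. Neither overlapped between the groups. Rbm34 was 1.64-fold, Rbm4 1.5-fold and Rbm4b 1.45-fold higher, and of the last pair 66.5% and 50.5% of 50-base words occur in transcripts of other genes, the partner gene among them. Rbm45 (1.28-fold), Rbm17 (1.15-fold) and Rbm8a, of the exon junction complex (1.14-fold), completed this side together with Rbm10.

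Lower Rbm genes were led by Rbm47 and Rbm38. Rbm47, a cofactor of cytidine editing, had 476, 418, 320, 267 and 290 in leukaemia, and 1287, 1346, 1409, 1701 and 1501 in myeloid cells. It was 4.09-fold lower (limma log2 difference -1.26, SE 0.0846, adjusted p = 1.17e-08), and no leukaemia library came near the lowest myeloid library. Rbm38, an RNA-binding protein gene of late erythroid splicing, had 2014, 2345, 2033, 2252 and 2183 in leukaemia, and 4840, 6360, 4014, 6290 and 4571 in myeloid cells (2.41-fold lower, limma log2 difference -1.07, SE 0.108, adjusted p = 6.15e-07). Here myeloid replicates 2 and 4 were the highest. Without them the difference (-0.89) no longer reached 1 in size on the variance-stabilised scale, and Rbm47 was then the only lower member to do so. Rbm18 had 843, 648, 796, 717 and 690 in leukaemia, and 1467, 1435, 1570, 1524 and 1480 in myeloid cells (2.02-fold lower, limma log2 difference -0.70, SE 0.0548, adjusted p = 5.11e-08). Rbm43 had 1040, 1174, 971, 1134 and 1131 in leukaemia, and 1951, 2392, 1871, 2214 and 1881 in myeloid cells (1.89-fold lower, limma log2 difference -0.69, SE 0.0671, adjusted p = 4.77e-07). These 4 genes, Lsm10 and Prpf18 were the 6 members that passed as lower under all 3 scalings.

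The related splicing regulators Rbm5, Rbm6 and Rbm10 did not move alike. Rbm5 had 4561, 4448, 4136, 5170 and 4631 in leukaemia, and 6514, 6890, 6598, 8081 and 6730 in myeloid cells (1.52-fold lower, limma log2 difference -0.55, SE 0.0728, adjusted p = 9.67e-06), with myeloid replicate 4 above the rest. Rbm6 was 1.18-fold lower (2395 ± 129 against 2829 ± 143 normalised reads). Rbm10 had 2610, 3231, 2632, 3102 and 2924 in leukaemia, and 1965, 2503, 1938, 2348 and 2111 in myeloid cells and was 1.33-fold higher (limma log2 difference 0.35, SE 0.0757, adjusted p = 0.000736). The Rbm5 decrease depended on the scaling, with a log2 difference of 0.038 under total scaling (limma adjusted p = 0.613), and Rbm6 then passed as higher (0.40). Rbm39, a U2AF-related factor and the target of sulfonamide degraders, had 11000, 9509, 11034, 10097 and 10210 in leukaemia, and 13198, 14663, 14223, 15741 and 13549 in myeloid cells (1.38-fold lower, limma log2 difference -0.44, SE 0.0689, adjusted p = 4.35e-05). It passed as higher, by 0.18 on the log2 scale, under total scaling (limma adjusted p = 0.0168), where the median of all genes tested was 0.43. Rbm33 (1.49-fold), Rbm27 (1.38-fold) and Rbm42 (1.35-fold) were lower by the authors' size factors and above 0 under total scaling. Rbm42 shares 92.3% of its words with a transcript of 1 other gene. Rbm25 (1.18-fold), Rbm41 (1.29-fold) and Rbm12b2 (1.22-fold) were lower with overlapping groups. Each lost its call when single libraries were left out, Rbm25 in 5 cases (leukaemia 2, 4 or 5, myeloid 3 or 4, adjusted p from 0.0518 to 0.0765), Rbm41 in 6 (leukaemia 2, 4 or 5, myeloid 3, 4 or 5, from 0.0593 to 0.08) and Rbm12b2 without leukaemia replicate 2 (0.0599) or myeloid replicate 4 (0.0627). Under total scaling all 3 were above 0, with Rbm25 (0.39) and Rbm12b2 (0.34) passing as higher and Rbm41 at 0.29 not passing (limma adjusted p = 0.129).

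Members below the filter on low values were Prpf40b, Rbm20 and Rbm44. Prpf40b, the gene of a U1-associated protein, had 319, 288, 439, 325 and 379 in leukaemia, and 40.8, 0, 54.9, 11.3 and 29.9 in myeloid cells (12.8-fold higher by the means). The myeloid libraries held 111 of its reads in all and replicate 2 held 0. Rbm20, known for splicing the titin RNA of heart muscle, had 94, 93, 140, 112 and 134 reads in leukaemia, and 0, 0, 3, 3 and 3 reads in the myeloid libraries. With no filter both passed as higher (limma log2 differences 1.13 and 0.70, adjusted p = 3.64e-07 and 1.65e-07). Rbm44 had 12.4, 11.1, 27.3, 11 and 25 in leukaemia, and 92.1, 56.7, 89.1, 58 and 78.8 in myeloid cells, and with no filter passed as lower (limma log2 difference -0.38, adjusted p = 2.75e-05). All 3 pairs of groups were clear of each other, as were those of 86.8% of the genes tested.

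The scaling set how many members were lower. Where 23 were lower with the authors' size factors, 9 were lower and 74 higher after quantile normalisation (backgrounds 40.9% and 46.6%). Under total scaling 6 were lower and 78 higher (backgrounds 27.6% and 57.2%). This scaling moved the median of all tested genes up by 0.64 against voom with the authors' size factors. With voom on recovered reads and the authors' size factors the counts were 70 higher and 23 lower (backgrounds 49% and 50.6%). Of the 70 higher members, 69 passed as higher under all 3 scalings, Snrnp35 being the other. Of the 23 lower members, 15 had values above 0 under total scaling, and 8 of these passed as higher. The median of all tested genes was then 0.43, so a value above 0 could still lie below it. Above the all-gene median of each scaling lay 70 of 93 members with the authors' size factors, 74 after quantile normalisation and 71 under total scaling. Over all tested genes this was 4039 of 8079 by definition. Set against the all-gene median, the members' median was 0.60 higher with the authors' size factors, 0.59 after quantile normalisation and 0.81 under total scaling. The Snrp family was 0.98, 0.90 and 1.42 above that median. The Rbm family was at -0.035, 0.12 and -0.03.

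**Figure D3:**
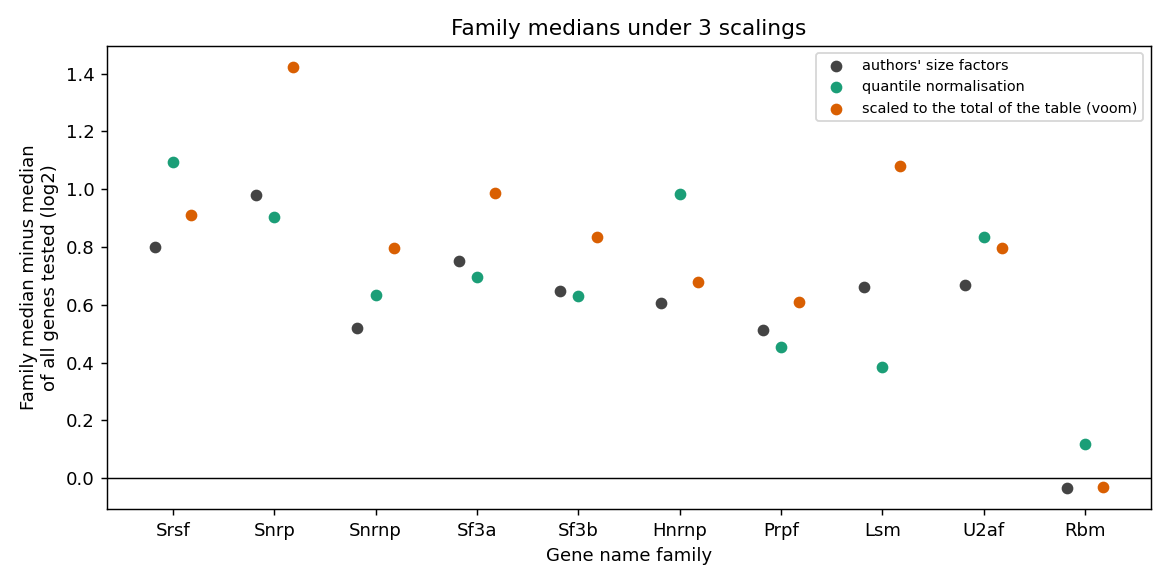
Family median minus the median of all genes tested (vertical axis, log2) for 10 name families under the authors' size factors, quantile normalisation and total scaling. Rbm lies near 0 under each scaling, between -0.035 and 0.12, and the other 9 families lie above 0.

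Within a group the members' median variation was below that of all genes tested. The median coefficient of variation was 6.7% over leukaemia and 10.1% over myeloid libraries, against 8.91% and 13.2% over all genes tested. The genes compared were not matched for read level, and its part in this difference was not tested. Among the leukaemia libraries replicate 1 was the lowest of the group for 35 of 93 members and replicate 5 for 5. Among the myeloid libraries replicate 2 was the highest for 38 members and replicate 5 for 4. The mean deviation of members from the group mean was 0.062 in myeloid replicate 2 and 0.035 in replicate 4, and between -0.048 and -0.021 in the others. Over all tested genes it was 0.035 and 0.025 in these libraries and between -0.023 and -0.017 in the others. Without myeloid replicates 2 and 4, 70 members were still higher and 22 lower, and the shares over all genes are not given for that run. Replicates 2 and 4 are also those with few MHC class II reads, and the part of that difference in the members' values was not tested.

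**Figure D4:**
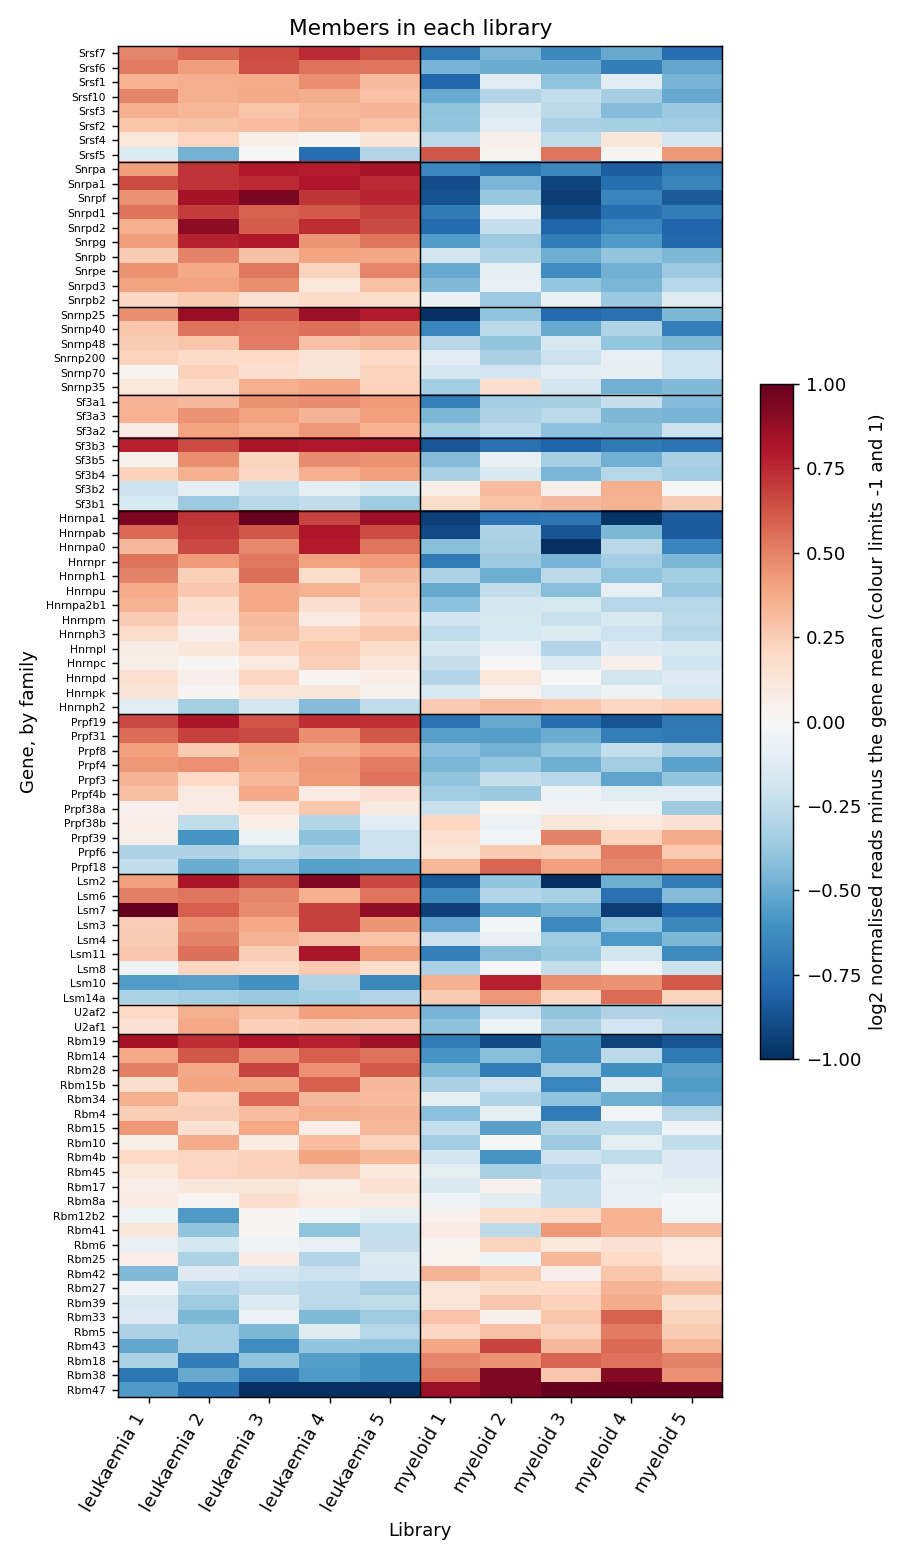
Log2 normalised reads minus the gene's mean over 10 libraries (colour, limits -1 and 1) for the 93 tested members (rows, by family and then by difference) in each library (columns). Snrp, Snrnp and Sf3a rows are red in leukaemia and mostly blue in myeloid libraries, while the lower part of Rbm shows the reverse.

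The other genes of the pathway were read from 8 lists. Over all genes tested 49.1% were higher and 50.7% lower with the authors' size factors. The shares were 46.6% and 40.9% after quantile normalisation, and 57.2% and 27.6% under total scaling. The all-gene medians were -0.16, 0.085 and 0.43 in the same order. List counts near these shares are not read as results about a list. Genes for snRNP assembly, in which the SMN complex loads Sm rings methylated by the methylosome, had 14 of 15 tested members higher and 1 lower (median log2 difference 0.63). Prmt5, the arginine methyltransferase that modifies Sm proteins, was 5.05-fold higher (2288 ± 190 against 453 ± 59.2 normalised reads, limma adjusted p = 1.23e-10), and Prmt1 was 3.46-fold higher. Gemin7 was 1.59-fold lower, and did not pass under total scaling. Kinases and phosphatase regulators of SR proteins had 2 of 7 higher and 5 lower (median -0.53). The counts were 2 and 4 after quantile normalisation (median -0.25), and 3 and 2 under total scaling (median -0.012), where Clk3 and Clk4 lost their calls and Dyrk1a passed as higher. These 2 medians lay at -0.33 and -0.44 from the all-gene median. Srpk1, the cytoplasmic SR protein kinase gene, was 1.35-fold higher, while its paralogue Srpk2 was 3.90-fold lower (1946 ± 136 against 7585 ± 1355). Clk1, a nuclear SR protein kinase gene, was 2.42-fold lower, and Ppp1r8 was 1.71-fold higher.

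Among other sequence-specific regulators 21 of 28 were higher and 7 lower (median 0.49), and under total scaling 23 were higher and 1 lower. Fubp1 was 3.08-fold higher, and Ptbp1, which encodes the polypyrimidine tract repressor, was 2.72-fold higher (19992 ± 544 against 7340 ± 586 normalised reads). Mbnl2 was 1.88-fold lower and Qk 1.67-fold lower. The call for Qk was lost after quantile normalisation and also under total scaling. The U2 and branch point list had 11 of 14 higher and 3 lower (median 0.28; under total scaling 12 and 1), with Phf5a, of the SF3B complex, 2.11-fold higher and Zrsr1 4.26-fold lower. Luc7l, a U1-associated factor gene in this list, was 1.86-fold higher and Luc7l2 1.42-fold lower. Of the helicases 6 of 10 were higher and 4 lower (median 0.46), among them Ddx39b (2.11-fold higher) and Dhx9 (2.10-fold higher). Ddx5 was 1.41-fold and Dhx38 1.30-fold lower, and both passed as higher after quantile normalisation (0.24 and 0.22). After quantile normalisation and under total scaling alike, all 10 helicases had values above 0 and 9 passed as higher.

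The tri-snRNP and Prp19 complex list had 14 of 23 higher and 9 lower (median 0.25), against 14 and 5 after quantile normalisation and 20 and 2 under total scaling (median 0.98). Snu13 was 2.31-fold and the U5 GTPase gene Eftud2 2.21-fold higher, and Syf2 was 2.42-fold and Slu7, a second-step factor gene, 1.76-fold lower. Of the minor spliceosome partners all 4 tested genes were lower (median -0.29), whereas the Snrnp genes of U11/U12 were higher. Armc7 was 6.40-fold lower. After quantile normalisation too all 4 genes of this list passed as lower (median -0.35). Scnm1 (1.39-fold), Zcrb1 (1.37-fold) and Rnpc3 (1.26-fold) were above 0 under total scaling, where the list counts were 1 higher and 1 lower. The list median was 0.17 there, against 0.43 over all genes tested. The exon junction and nonsense-mediated decay list had 8 of 14 higher and 6 lower (median 0.19), and 10 higher and 3 lower under total scaling (median 0.90). Rnps1 was 1.81-fold and Eif4a3 1.77-fold higher, and Smg9 was 2.57-fold and Upf2 2.09-fold lower.

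**Figure D5:**
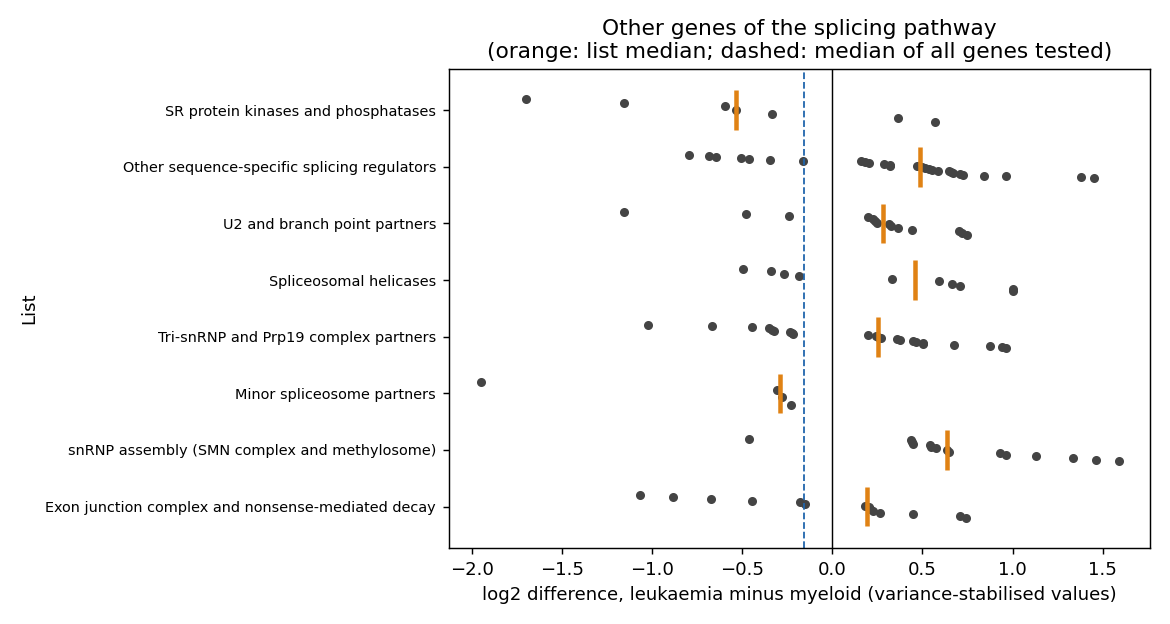
Log2 difference of variance-stabilised values, leukaemia minus myeloid (horizontal axis), for each tested gene of 8 lists (vertical axis), with list medians in orange and the median of all genes tested dashed at -0.16. The snRNP assembly list has 14 of 15 points above 0, and the minor spliceosome partners and SR protein kinases and phosphatases have medians below the dashed line.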

How the data were processed

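The authors deposited log2 values, normalised and variance-stabilised, for 10141 genes in 10 libraries. HISAT2 (versions 2.0.4 and 2.2.1) and DESeq2 are named in the submitters' processing notes. No source used here gave the genome build, annotation, counter or strandedness, so overlapping and antisense genes cannot be separated.

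The function was inverted from its shared lowest value, 8.1823. In each library 100.0% of values up to 300 reads then came out whole within 0.1 read, which gave reads, size factors and normalised reads (mean ± SD, n = 5). Intervals for counts were not used. Leukaemia was compared with myeloid cells in limma (3.58.1, under R 4.3.3), with a trended prior variance, two-sided, with Benjamini-Hochberg adjustment at 0.05 over the 8079 genes whose mean lay over 1 unit (about 145 normalised reads) above the lowest value. The fit was also run on simulated data in which most genes did not differ between the groups. This is unlike the data here, so that run does not cover their setting. Folds are ratios of mean normalised reads. Same-numbered libraries deviated together in 4 of 5 pairs. Numbers were not treated as pairs, and whether same-numbered libraries share a mouse or a batch was not tested.

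Members, lists and naming rules were chosen with earlier results of these data known. Every member was named. Values per library were printed for the 2 highest and 2 lowest passing members of each family without overlap, the 10 highest and lowest of all members, members not tested and a fixed set of known regulators. From each list up to 2 highest and 2 lowest passing genes were named, plus Srpk1, Clk1, Ptbp1 and Prmt5. Others given per library were chosen after seeing the data. The groups of snRNP proteins by RNA, and the analyses without myeloid replicates 2 and 4, were chosen after seeing the data, as were the single marker genes, Clk3, Clk4 and Dyrk1a. Hnrnpll and Rbm3 are not analysed here.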

Additional observations from a re-analysis of the deposited data

Results flagged for a closer look

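Values of single libraries that lay far from the other 4 of their group were found for 18 of 256 gene and group combinations, by a gap over 0.71 of the range. These combinations covered the members and a part of the listed genes. The single marker genes, Clk3, Clk4 and Dyrk1a were not among them. Chance flags about 1 in 20 groups. In leukaemia replicate 1, Lsm8 had 1001 normalised reads, against 1163 to 1225 in the others. Sf3a2 had 2167 normalised reads, against 2617 to 2768 in the others. Snrnp40 had 2191 normalised reads, against 2550 to 2636 in the others. Snrpa had 2545 normalised reads, against 3131 to 3365 in the others. In leukaemia replicate 2, Rbm12b2 had 602 normalised reads, against 840 to 897 in the others. Sf3b3 had 9608 normalised reads, against 10464 to 10719 in the others. In leukaemia replicate 3, Snrnp48 had 777 normalised reads, against 652 to 682 in the others. Srsf3 had 12184 normalised reads, against 12681 to 12871 in the others. In leukaemia replicate 4, Lsm10 had 360 normalised reads, against 284 to 304 in the others. Luc7l had 3535 normalised reads, against 2709 to 2926 in the others. In myeloid replicate 1, Fubp1 had 2150 normalised reads, against 2724 to 2940 in the others. In myeloid replicate 2, Ddx39b had 5912 normalised reads, against 5348 to 5472 in the others. Snrpd1 had 1260 normalised reads, against 712 to 823 in the others. Snrpd2 had 909 normalised reads, against 614 to 679 in the others. Srsf2 had 8783 normalised reads, against 7178 to 7550 in the others. In myeloid replicate 4, Rbm5 had 8081 normalised reads, against 6514 to 6890 in the others. Rnpc3 had 1338 normalised reads, against 1025 to 1095 in the others. Srsf6 had 5083 normalised reads, against 5742 to 5968 in the others. The cause of these values was not tested.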

How the results depend on the processing

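The count of higher members was within 1.5 times of 70 under every alternative run, and that of lower members moved to 9 after quantile normalisation and to 6 under total scaling. Members past a log2 difference of 1 numbered 25 higher and 1 lower after quantile normalisation, 20 and 4 with voom on recovered reads and the authors' size factors, and 60 and 1 under total scaling. The median over all genes tested was 0.085, -0.21 and 0.43 in these runs. The share of all genes past 1 is not given for them, so these counts are not read as results about the members. With myeloid replicates 2 and 4 left out, and with the libraries numbered 1, 3 and 5 alone, 1 was lower (both chosen after seeing the data). Leaving out each library in turn gave 67 to 70 higher and 19 to 23 lower members, 6 to 11 and 2 past a log2 difference of 1, and a median from 0.40 to 0.46. Shares over all genes are not given for the runs with libraries left out either, so their counts are not read as results about the members. The median log2 difference of the members, 0.44, was 0.67 after quantile normalisation, 0.60 with voom and 1.24 under total scaling.

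Signs turned in these cases. Total scaling moved the median of all tested genes up by 0.64 against voom with the authors' size factors. Between those 2 runs Sf3b1 went from -0.56 to 0.083 and Rbm5 from -0.60 to 0.038. A turned sign is therefore a change against 0 and not against the other genes. Why the scalings differ was not tested. After quantile normalisation the log2 differences were Ddx5 0.24, Dhx38 0.22, Dyrk1a 0.084, Hnrnph2 0.049, Luc7l2 0.099, Prpf38b 0.33, Rbm25 0.34, Rbm33 0.025, Rbm39 0.15, Rbm42 0.019, Rbm5 0.0088, Rbm6 0.13, Sf3b1 0.047 and Sf3b2 0.29. Under total scaling they were Ddx5 0.14, Dhx38 0.27, Dyrk1a 0.25, Hnrnph2 0.12, Luc7l2 0.13, Prpf38b 0.43, Prpf39 0.16, Prpf6 0.082, Rbm12b2 0.34, Rbm25 0.39, Rbm27 0.18, Rbm33 0.066, Rbm39 0.18, Rbm41 0.29, Rbm42 0.20, Rbm5 0.038, Rbm6 0.40, Rnpc3 0.31, Scnm1 0.16, Sf3b1 0.083, Sf3b2 0.33 and Zcrb1 0.18. The median of the Rbm family was then 0.20 and 0.40, and that of the minor spliceosome partners 0.17 under the second. With a replicate block all 93 members kept their direction and call, with 70 higher and 23 lower, and the shares over all genes are not given for it. Same-numbered libraries correlated in their deviations at 0.13, 0.23, 0.32, 0.29 and -0.02 (replicates 1 to 5, across genes). The numbers are not taken as pairs, but these values do not settle whether same-numbered libraries share a mouse or a batch. Low reads limit Rbm20 and Rbm44, and the table holds genes with a difference, so its adjusted p-values are not error rates over the transcriptome.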
